A study of Mus musculus with 12 samples.

Results

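The 3 livers taken 12 h after partial hepatectomy were compared with the 3 taken at 0 h, 6 of the 12 samples of the series, over every probe of the array. Partial hepatectomy is the surgical removal of part of the liver, here 2/3 of it, after which the remaining liver grows back. All mice were wild-type C57BL/6 males, 6 weeks old by the labels, and they carried no transgene and received no other treatment that the labels name. The groups were chosen by the sample titles, with no measured value used. How the 0 h liver was obtained is not stated, and no group of mice operated on without removal of liver was analysed here. The hour of the day at collection is not stated, so the time since surgery and the time of day cannot be told apart. The labels give 3 mice for each time point, and the arrays were taken as 1 per mouse. Total RNA of whole liver tissue, prepared with Trizol, was labelled with Cy3 and hybridised to a 1-colour Agilent array with coding probes and with probes for long noncoding RNAs, transcripts that do not code for a protein. The series set out to find long noncoding RNAs that change as the liver regenerates.

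As background, the hepatocytes of a resting adult liver are out of the cell cycle. After hepatectomy, cytokines such as TNF and IL-6 from the liver's macrophages act on hepatocytes through NF-kB and STAT3 and prime them to respond to growth factors such as HGF and the EGF receptor ligands. Hepatocytes then pass through G1 before they copy their DNA, which in mice happens after the time studied here, so that this liver is usually called prereplicative. During this time the remaining tissue also has to keep up glucose, bile acid, ammonia and plasma protein handling for the whole body, and it takes up fatty acids from adipose tissue and stores them as lipid droplets.

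Of 37246 probes, 26827 were well above background on at least 3 of the 6 arrays and were tested with limma. Of these, 17885 were coding and 8942 noncoding. A level is the log2 of the processed signal minus that array's 75th percentile, so 0 is a probe at that percentile. A change is the 12 h mean minus the 0 h mean on that scale, and ± is its standard error from the fit with 3 mice a group. Called means a p-value adjusted by Benjamini-Hochberg over all 26827 probes under 0.05. These p-values measure the spread between the samples of this 1 experiment. In all, 13625 probes were called (50.8%), of which 8429 were higher at 12 h (31.4% of those tested) and 5196 lower (19.4%). The values of the groups did not overlap for 16557 probes (61.7%). Because a call was met by about 1 probe in every 2, a count of called genes is read below against these shares. Over the 15256 named genes, each taken at its brightest probe, 50.6% were called, 28.2% higher and 22.4% lower. A called change of at least 2-fold was met by 14.2% of named genes upwards and by 12.6% downwards.

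The hybridisation is bound up with the groups. Slides were told apart by the scan date in the file headers, and arrays that shared a date were taken as lying on the same slide. The 3 arrays of 0 h lay on 1 slide with 1.5 h replicate 1, 12 h replicates 1 and 2 on a second slide with the other 1.5 h arrays, and 12 h replicate 3 on another slide with 24 h arrays. No slide held both groups, so they can be compared within slides only through the other time points. Spots well above background made up 62.8%, 70.4% and 67.4% on the 0 h arrays and 85.4%, 85.0% and 63.6% on the 12 h arrays. Array 12 h replicate 3 had a median local background of 106 against 37.0 to 48.0 on the other 5, and on the second principal component, which held 11.6% of the variance, it stood at -67.84 against 22.27 and 44.85 for the other 12 h arrays. With slide as a fixed block in a fit of all 12 arrays, 747 probes were higher and 779 lower. Most gene lists below are given with their value from that fit. Its change between the groups takes nothing from 12 h replicate 3, which shares a slide only with 24 h arrays. It rests on 12 h replicates 1 and 2, and 1.5 h replicate 1 alone links their slide to that of 0 h. With normexp background correction in place of the scanner's own, 228 probes were higher and 584 lower. Normexp here adds an offset of 50 to every signal, which by itself draws the changes of dim probes towards 0. The share of called probes that were higher was 61.9% here, 48.95% with the slide block, 48.9% with quantile normalization, 50.6% in the authors' deposited values, 41.7% with all 12 arrays in the fit and 28.1% with normexp. The median change of all probes was 0.29, and it was 0.09 with quantile normalization, so changes of lists are also given relative to the median of all probes. The labelled tissue was borne out by 10 hepatocyte markers, from Alb to Hnf4a, none of which lay below percentile 94.1 on any of the 6 arrays.

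**Figure D1:**
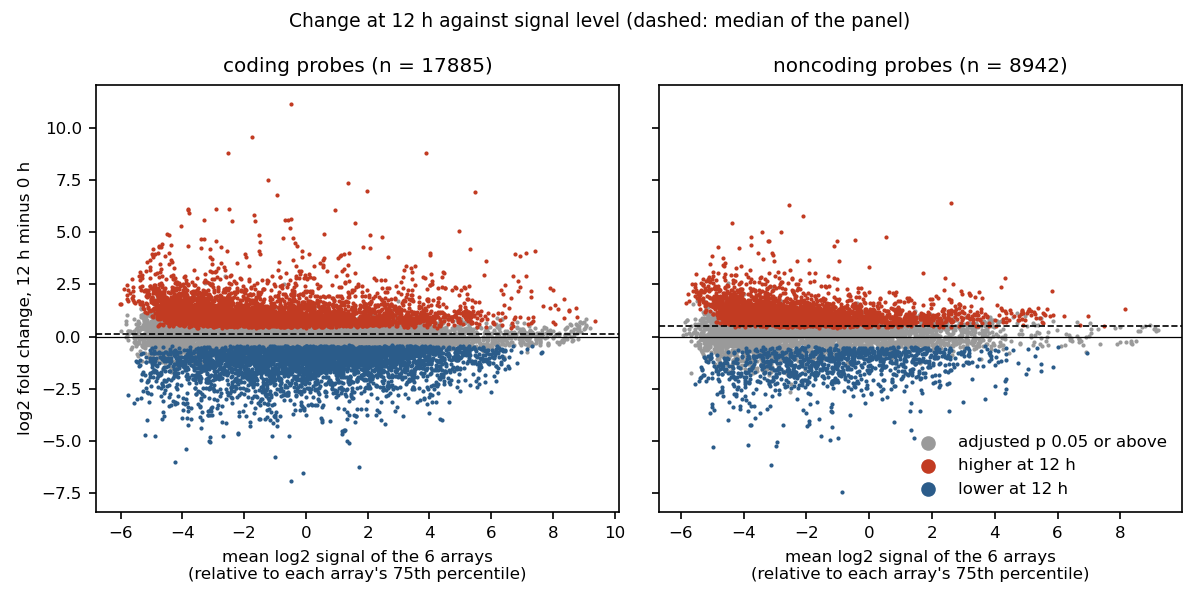
Change at 12 h (log2, 12 h minus 0 h) on the vertical axis against the mean log2 signal of the 6 arrays on the horizontal axis, for coding probes (left) and noncoding probes (right), with called probes in red (higher) and blue (lower) and the median of each panel dashed. The noncoding median, 0.53, lies above the coding median, 0.14, and the median change falls from 0.63 in the dimmest 25% of probes to -0.08 in the brightest.

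Among coding genes the widest rise was that of A2m, a broad protease inhibitor of the acute phase. It stood at -5.98, -6.72 and -5.44 at 0 h and 4.82, 5.10 and 5.41 at 12 h. All 3 arrays of 0 h were not well above background and all 3 of 12 h were, so its rise was at least 993-fold (adjusted p = 3.15e-05). For such bounds each 0 h signal was raised to the lowest signal called well above background on its array. Reg3g, an antibacterial lectin, rose at least 237-fold and Tm4sf20, a membrane protein, at least 105-fold. Lcn2, which binds bacterial iron carriers, stood at -1.04, 0.65 and -1.11 at 0 h and 8.44, 8.22 and 8.19 at 12 h, with its groups far apart. That rise was 442-fold (log2 8.79 ± 0.46, adjusted p = 7.84e-05). Sult1e1, the sulfotransferase that inactivates oestrogens, stood at -5.07, -4.39 and -5.53 at 0 h and 2.30, 1.91 and 3.34 at 12 h. With 1 of its 3 arrays of 0 h well above background, its fitted rise of 183-fold rests in part on dim signals, and it came to 4.56 on the log2 scale with normexp, still called. Cd14, a receptor part for bacterial lipopolysaccharide, rose 129-fold, and the metal-binding metallothionein Mt2 122-fold. Slc10a6, a carrier of sulfated steroids, rose by 6.81 ± 0.65 on the log2 scale, also with 1 of 3 arrays of 0 h well above background (4.21 with normexp and 7.45 without 12 h replicate 2). Ch25h, which makes 25-hydroxycholesterol, rose at least 32.4-fold.

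At the other end stood Cyp7a1, which limits how fast bile acids are made from cholesterol, at 2.59, 3.71 and 2.58 at 0 h and -3.74, -3.66 and -4.46 at 12 h. Its groups lay more than 6 log2 units apart, a fall of 120-fold (log2 -6.91 ± 0.37, adjusted p = 8.56e-05) with 2 of 3 arrays of 12 h well above background, and its log2 change was -4.24 with normexp. Keg1 fell 94.2-fold and Hsd3b5, a male-biased steroid dehydrogenase of mouse liver, 75.3-fold. Ell3, an elongation factor of RNA polymerase II, fell at least 19.5-fold and Mpp4, a scaffold protein, at least 20.4-fold, since their 12 h arrays were not well above background. Tmem25 stood at 1.80, 2.06 and 1.81 at 0 h and -3.70, -1.57 and -6.33 at 12 h. Its 12 h arrays spread over more than 4 log2 units, and 2 of the 3 were well above background. Its fitted log2 change of -5.76 ± 1.04 was -4.53 without 12 h replicate 3, the lowest array, and -6.91 without 12 h replicate 2. Apol7a (33.9-fold), Spsb4 (33.5-fold), Hes6 (log2 -5.01 ± 0.23), a repressor of the Hes family, and Pnpla3 (31.6-fold), a lipase of lipid droplets, complete the 10 deepest falls, with 1 array of 12 h well above background for Spsb4 and 2 for Pnpla3. With normexp the falls of Ell3, Mpp4, Spsb4 and Pnpla3 came to -1.09, -1.16, -1.60 and -1.74 on the log2 scale and were not called, while the other 6 falls and the 9 rises named here were.

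**Figure D2:**
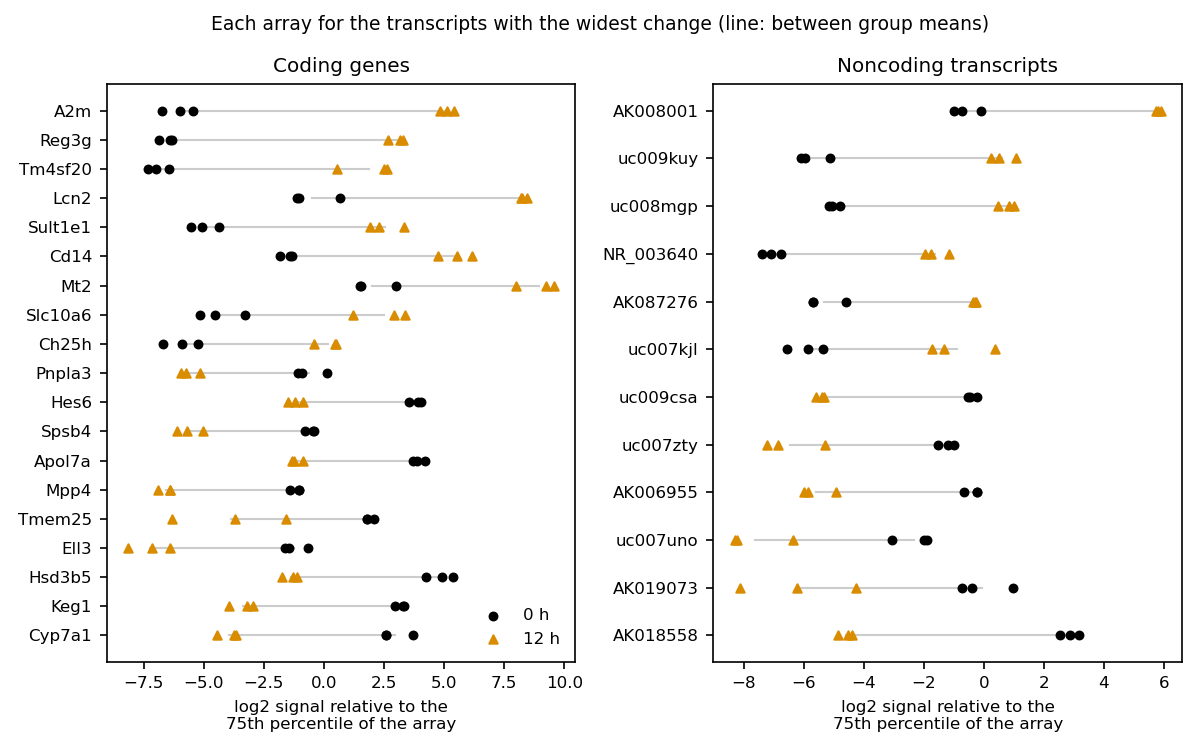
Level on each array (log2 signal relative to the array's 75th percentile) of coding genes (left, 9 higher and 10 lower) and noncoding transcripts (right, 6 in each direction) among those with the widest called changes, with 0 h as black circles, 12 h as orange triangles and a grey line between the group means. No transcript shown has overlapping groups, some of the lowest values are not well above background, and Tmem25 and AK019073 are the widest spread at 12 h.

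Some called members described below were measured on only part of the arrays of their lower group, so their folds rest in part on dim signals and are fitted values. Of the 3 arrays of 0 h, 1 was well above background for Cdc25c, Pnpla2, Elovl1 and Slc4a1, and 2 were for Il6ra, Tnf, Hgf, Acvr1b, Ccne2 and Rhag. Of the 3 arrays of 12 h, 1 was well above background for Ugt1a1, and 2 were for Cxcl9, E2f2, Pola1, Cenpa, Slc10a1, Sult1c2, Col5a1 and Ifit3. With normexp, whose offset by itself draws dim probes towards 0, all 19 of these were nearer to 0 and none was called. Hgf was then at 1.35 and Slc10a1 at -1.18 on the log2 scale.

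**Figure D3:**
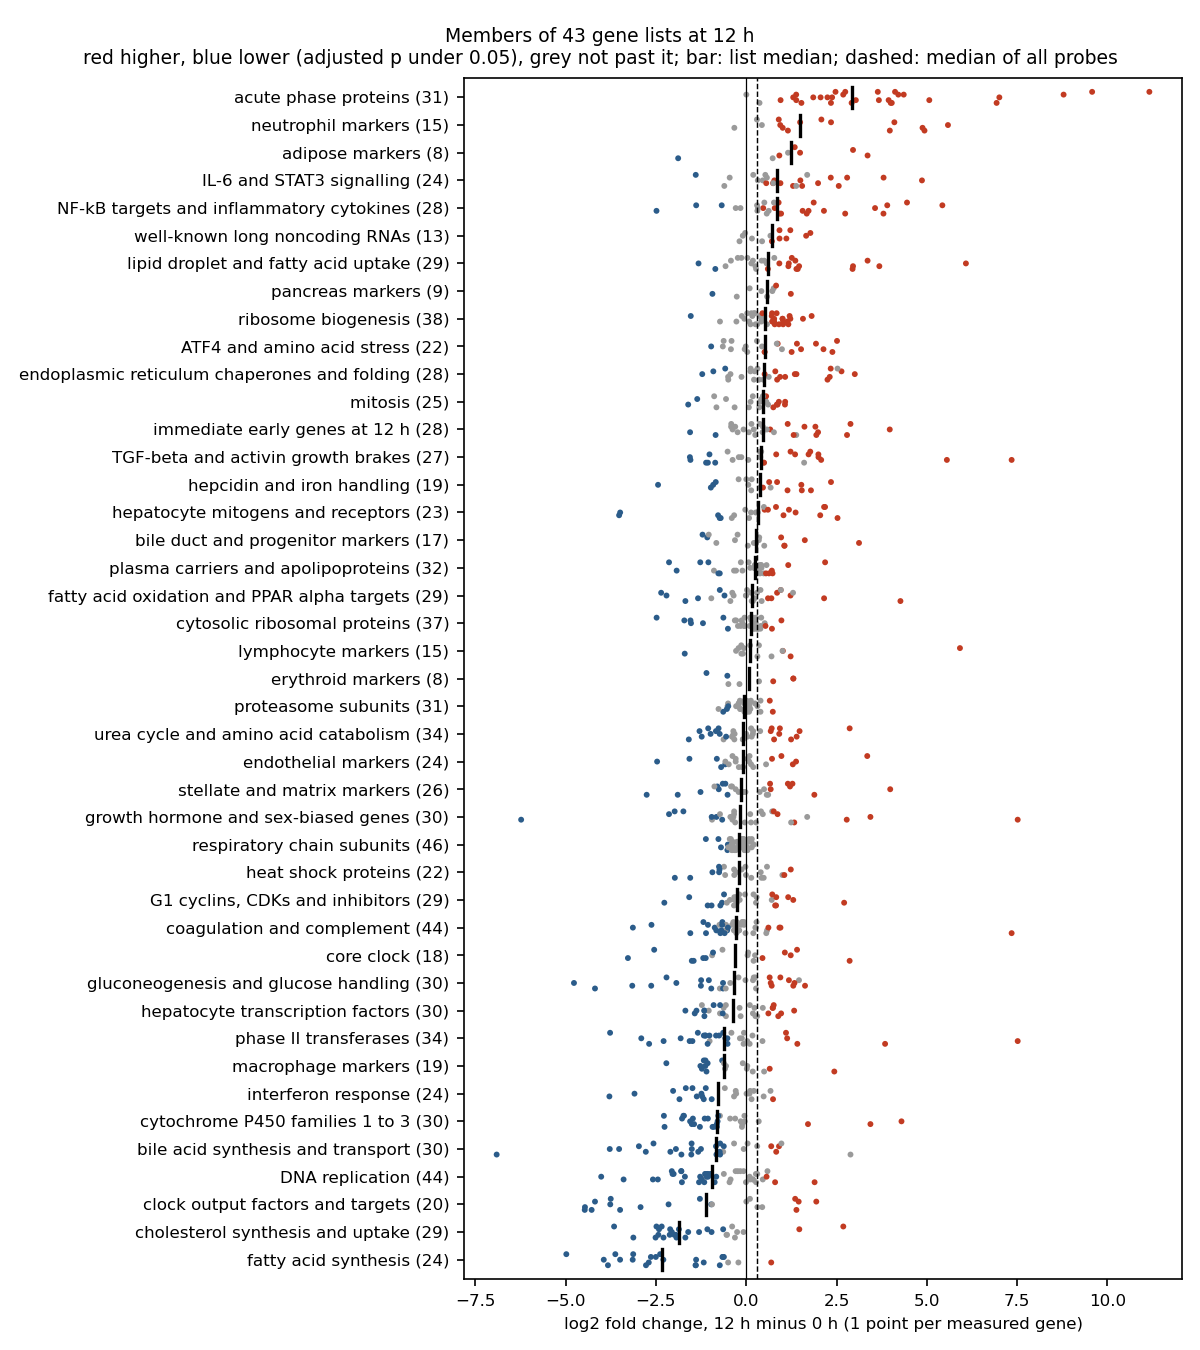
Change at 12 h (log2) of every measured member of 43 gene lists, 1 point a gene, red where called higher, blue where called lower and grey otherwise, with a black bar at each list's median and the median of all probes dashed at 0.29. Acute phase proteins have the highest median, 2.92, and fatty acid synthesis the lowest, -2.34.

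Acute phase proteins, the plasma and defence proteins that the liver makes in inflammation, rose most as a list. Of 31 measured members 29 rose, none fell and 2 were not called, and 28 rose at least 2-fold. The median change was 2.92, or 2.63 above that of all probes, and 3.09 with slide as a block, where 28 of 30 were called higher. Saa1, a serum amyloid A carried on lipoproteins, stood at 5.82, 6.07 and 5.13 at 0 h and 9.07, 9.02 and 7.67 at 12 h. Its 12 h arrays were all above those of 0 h, with replicate 3 the lowest of the 3, and the rise was 7.55-fold (adjusted p = 0.00215). Saa2 rose 15.4-fold and the carrier Orm1 5.20-fold. Saa3 (18.5-fold), the pentraxin Apcs (12.5-fold), the inter-alpha-trypsin inhibitor chain Itih4 (6.43-fold), Il1rn, the natural antagonist of the IL-1 receptor (20.5-fold), and Steap4, a metal reductase (log2 5.07 ± 0.38), were picked after their values were seen, as were the next 3 members. Hp (1.93-fold) and Hpx (2.46-fold), which clear free haemoglobin and haem, rose less from a high level. Crp, the classical human marker, had a mean level of 6.85 ± 0.14 (SD, n = 3) at 0 h and 7.22 ± 0.05 (SD, n = 3) at 12 h. Those groups did not overlap, yet the change of 0.37 ± 0.16 was not called (adjusted p = 0.0863). In whole tissue, a change in the number of cells of a type and a change in RNA per cell cannot be told apart, here and below.

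STAT3 binds palindromes of the form TTCNNNGAA. In windows from 250 bases before to 50 after each start site (RefSeq, build GRCm38.p6), searched on both strands, the motif was found in 6 of the 23 acute phase genes with a window (26.1%) against 9.55% of 27025 genes. The carriers were Apcs, Itih4, Reg3b, Fga, Fgb and Steap4, and all 6 rose, as did 21 of the 23 genes with a window. In the IL-6 and STAT3 signalling list 2 of 22 genes with a window held the motif (9.09%), near the share of all genes. They were Socs3, which rose, and Cish, which was not called. The sites of Fga, which encodes the fibrinogen alpha chain and rose, from 2.74, 3.43 and 2.72 at 0 h to 5.99, 5.79 and 6.22 at 12 h, of Steap4, and of Socs3, a feedback inhibitor of STAT3 described below, are shown with the motif in capitals (chr3:83025903-83025951, + strand; chr5:7960332-7960388, + strand; chr11:117969488-117969544, - strand).
Fga: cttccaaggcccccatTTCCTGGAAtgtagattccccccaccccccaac
Steap4: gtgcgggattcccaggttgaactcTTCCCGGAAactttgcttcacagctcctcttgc
Socs3: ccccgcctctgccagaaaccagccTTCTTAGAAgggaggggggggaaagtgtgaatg
A match is a description of the letters and was not tested for binding.

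In IL-6 and STAT3 signalling more members rose than fell. Of 24 members 13 rose, 1 fell and 10 were not called, with a median of 0.86 (0.69 with the slide block, where 2 rose and 0 fell). Il6, the ligand, stood at -2.60, 0.11 and -2.37 at 0 h and 2.07, -0.31 and 1.05 at 12 h. The groups overlapped, since 0 h replicate 2 lay above 12 h replicate 2, and the call was marginal (2.56 ± 0.84, adjusted p = 0.0376). It was lost without 0 h replicate 1 (2.07), 0 h replicate 3 (2.19), 12 h replicate 1 (1.99) or 12 h replicate 3 (2.50), and the change was 3.43 without 0 h replicate 2 and 3.19 without 12 h replicate 2. The receptor Il6ra rose by 0.95 ± 0.29, and its partner Il6st, also called gp130, changed by 0.46 ± 0.17 and was not called. Osmr, the receptor of oncostatin M, stood at -1.19, -1.21 and -1.06 at 0 h and 1.72, 1.46 and 1.74 at 12 h, 3 tight values in each group and a rise of 6.93-fold (adjusted p = 0.000104). The feedback inhibitors rose more, with Socs3 at 1.75, 0.17 and 0.34 at 0 h and 5.51, 3.62 and 4.54 at 12 h (13.9-fold, adjusted p = 0.00232) and Socs1 up 29.1-fold. Both varied between the 12 h mice, with replicate 2 the lowest in each, and the log2 change of Socs1 was 4.03 without 12 h replicate 1 and 5.84 without 12 h replicate 2. Bcl3, a nuclear co-factor of NF-kB, rose 5.06-fold. Lifr, the receptor of leukaemia inhibitory factor, was the 1 member that fell (log2 -1.40 ± 0.27).

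Among NF-kB targets and inflammatory cytokines, 16 of 28 rose, 3 fell and 9 were not called, with a median of 0.84 and 1.10 with the slide block (8 higher, 0 lower). Tnf rose from a low level, -4.29, -4.18 and -4.17 at 0 h to -2.46, -2.80 and -2.36 at 12 h, with groups that did not overlap (3.19-fold, adjusted p = 0.000663). Nfkbia, the inhibitor that holds NF-kB in the cytoplasm, changed by 0.31 ± 0.24 and was not called, and the subunit Nfkb1 rose by 0.47 ± 0.16. Of the chemokines that draw neutrophils, 3 rose. Cxcl1 stood at -1.04, -1.46 and -0.87 at 0 h and 4.76, 3.79 and 4.37 at 12 h, a rise of 43.1-fold (adjusted p = 8.36e-05). Cxcl5, well above background on 1 of 3 arrays of 0 h, rose by 3.80 ± 0.29 on the log2 scale, and with normexp the change of 1.69 was not called. Cxcl2, which was not well above background on any 0 h array, rose at least 5.26-fold. The IL-1 receptor Il1r1 rose 15.0-fold. Cxcl9, a target of interferon gamma, fell (log2 -2.49 ± 0.54), as did Cxcl12 (-1.39 ± 0.20), a homing chemokine, and Birc3 (-0.68 ± 0.20), an inhibitor of apoptosis.

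The hepatocyte mitogens and their receptors moved in both directions. Of 23 members 10 rose, 5 fell (3 without 0 h replicate 1, 0 h replicate 2, 0 h replicate 3, 12 h replicate 1 or 12 h replicate 2) and 8 were not called, and the median of 0.32 was close to that of all probes (0.02 with the slide block). Hgf, the main hepatocyte mitogen, stood at -4.29, -4.49 and -4.08 at 0 h and -1.80, -1.69 and -1.80 at 12 h, rising 5.76-fold (adjusted p = 0.000151), while its receptor Met fell by 0.78 on the log2 scale (adjusted p = 0.0129). Egfr changed by 0.32 ± 0.24 and was not called. Ereg, a ligand of the EGF receptor, rose at least 2.40-fold. Fgf21, a hormone of fasting, stood at -0.89, -2.26 and -1.29 at 0 h and -0.14, 0.49 and 1.67 at 12 h. Its groups did not overlap, with 12 h replicate 3 the highest, and it rose 4.45-fold. Igfbp1 rose 4.54-fold and Plat, the tissue plasminogen activator, 2.58-fold. The fibroblast growth factor receptor partner Klb fell 11.5-fold, Fgfr4 by 0.74 on the log2 scale, Igfals, which stabilises circulating IGF, 11.2-fold, and Hgfac, the activator of HGF, by 0.71 on the log2 scale.

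In the TGF-beta and activin list, which holds the brakes on hepatocyte growth, 11 of 27 rose, 6 fell and 10 were not called (median 0.41, 0.29 with the slide block). The count of falls was 3 without 0 h replicate 1. Tgfb1 changed by 0.48 ± 0.22 and Smad7 by -0.21 ± 0.23, neither called. Inhba, the activin A chain, fell, from 0.70, 0.35 and 1.38 at 0 h to -1.19, -0.49 and -0.53 at 12 h (log2 -1.55 ± 0.32, adjusted p = 0.00724). Inhbb, the activin B chain, went the other way, -4.99, -6.94 and -3.59 at 0 h and 1.00, -0.39 and 0.54 at 12 h. Its 0 h arrays spread over 3 log2 units, 1 of the 3 well above background, and the groups did not overlap. The fitted log2 change was 5.55 ± 0.80 (adjusted p = 0.00201), 4.67 without 0 h replicate 2, 6.35 without 0 h replicate 3 and 2.27 with normexp. Acvr1b, an activin receptor, rose 4.21-fold and Id1, a target of BMP signals, 4.00-fold. Inhbc (-1.56 ± 0.23), Tgfbr2 (-1.11 ± 0.23), Smad3 (-1.06 ± 0.27) and Acvr2b (-1.02 ± 0.25) fell on the log2 scale.

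Most immediate early genes, which are induced within minutes of a stimulus, were not called. Of 28 members 10 rose, a share near that of all named genes, 2 fell and 16 were not called (median 0.45, 0.85 with the slide block). Fos stood at -1.38, -2.73 and -0.97 at 0 h and -0.51, 0.51 and -0.94 at 12 h. The groups did not overlap, but the change of 1.38 ± 0.53 was not called (adjusted p = 0.0616), and Jun (-0.24 ± 0.25) and Myc (-0.08 ± 0.22) overlapped between the groups. Ier3, an early gene of cell survival, stood at -0.79, -0.98 and -0.49 at 0 h and 3.77, 2.27 and 3.61 at 12 h and rose 15.7-fold. Gadd45g, a stress-induced growth arrest gene, rose 6.92-fold (log2 3.48 without 0 h replicate 1), Junb 3.97-fold and the AP-1 member Fosl1 at least 1.85-fold. The MAP kinase phosphatases Dusp6 (-1.56 ± 0.30) and Dusp1 (-0.85 ± 0.19) fell.

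The regulators of G1 split evenly, with 7 of 29 higher, 7 lower and 15 not called. Their median was -0.26 (-0.02 with the slide block, and 0.02, the other sign, with normexp), and the count of falls was 4 without 0 h replicate 3. Cdkn1a, the cell cycle inhibitor p21, stood at -1.94, -1.83 and -1.82 at 0 h and 1.51, 0.06 and 0.97 at 12 h. No 12 h value overlapped those of 0 h, and the rise was 6.54-fold (adjusted p = 0.00132). Trp53, the gene of p53, rose 2.24-fold and E2f8, a repressing E2F factor, 2.46-fold. Ccnd1, the D-type cyclin that drives hepatocytes through G1, was not higher at this time. Its levels were 1.38, 1.58 and 1.68 at 0 h and 0.72, 0.64 and 1.12 at 12 h, a fall of 0.72 on the log2 scale (adjusted p = 0.0193). Ccnd2 fell 2.99-fold, E2f2 4.82-fold, E2f6 2.10-fold and Rbl2, a pocket protein, by 0.96 on the log2 scale. Ccne1 changed by -0.18 ± 0.18 and was not called, while Ccne2 (0.82 ± 0.19) and Cdk6 (0.83 ± 0.20) rose from low levels. Neither of these 2 rises was called with quantile normalization (0.23 for Ccne2 and 0.38 for Cdk6) or with the slide block (0.12 and 0.33).

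Among DNA replication genes falls outnumbered rises. Of 44 members 23 fell, 20 of them at least 2-fold, 3 rose and 18 were not called. The median was -0.94, 1.22 below that of all probes, and -0.39 with the slide block, where 11 fell and 0 rose. Normexp left 2 falls. Mcm10, which helps open the origin, stood at 4.64, 4.23 and 4.42 at 0 h and 0.19, 0.83 and 0.23 at 12 h, a fall of 16.2-fold (adjusted p = 0.000102). Tk1, the thymidine kinase of S phase, stood at 1.89, 2.52 and 2.29 at 0 h and -0.76, -1.46 and -1.27 at 12 h and fell 10.5-fold. Both had groups more than 2 log2 units apart. The polymerase subunit Pole (6.00-fold) and the chromatin assembly factor Chaf1a (5.46-fold) also fell. The 3 members that rose were Orc2 (3.71-fold), of the origin recognition complex, Rrm1 (1.74-fold), of ribonucleotide reductase, and Tyms (1.48-fold), thymidylate synthase. Mcm2 (-0.46 ± 0.22), Pcna (0.46 ± 0.19) and Rrm2 (-1.13 ± 0.41) were not called.

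E2F factors bind sequences of the form TTTNNCGC. The motif was found on either strand in 14 of the 36 replication genes with a window (38.9%) against 5.93% of all genes. It was in 8 of the 17 that fell, 1 of the 3 that rose and 5 of the 16 that were not called. The windows of Mcm6, a subunit of the replicative helicase (0.72, 1.13 and 1.06 at 0 h and -0.94, -0.80 and -0.70 at 12 h, a fall of 3.44-fold), and of Pola1, the primase polymerase (a fall of 3.48-fold), are shown with the match in capitals, 2 for Mcm6 and 1, on the other strand, for Pola1 (chr1:128359784-128359839 and chr1:128359721-128359776, - strand; chrX:93632262-93632317, - strand).
Mcm6 first: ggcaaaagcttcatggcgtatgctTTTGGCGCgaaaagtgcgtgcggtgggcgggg
Mcm6 second: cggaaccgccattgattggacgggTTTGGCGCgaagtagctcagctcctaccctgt
Pola1: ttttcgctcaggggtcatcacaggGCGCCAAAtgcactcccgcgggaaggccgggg
A further match of Mcm6, GCGCGAAA on the other strand, overlaps the first one shown and is not marked in full. Both genes were picked after their values were seen, and the motif says nothing of which E2F factor was present.

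Of 25 mitosis genes 9 were higher, 2 lower and 14 not called (median 0.46, 0.19 with the slide block), and their summed signal went from between 3.44 and 4.13 at 0 h to between 4.53 and 4.77 at 12 h, without overlap. The count of rises was 2 without 0 h replicate 1 or 12 h replicate 1, 4 without 12 h replicate 2, 5 without 0 h replicate 2 or 0 h replicate 3. Mki67, the proliferation marker, stood at -3.27, -2.48 and -3.03 at 0 h and -3.16, -3.46 and -3.13 at 12 h, overlapping groups with no call. Ccna2 (0.12 ± 0.53) was not called either. Ccnb1 (0.87 ± 0.29) overlapped too but was called. Bub1 (1.08 ± 0.25), Aurkb (1.07 ± 0.24), Cdc25c (0.90 ± 0.30) and Ube2c (0.85 ± 0.24) rose, and Cenpa (-1.61 ± 0.20) and Birc5 (-1.36 ± 0.32) fell.

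About 1 in 2 assembly factors of the ribosome rose, and most ribosomal proteins were not called. In ribosome biogenesis 19 of 38 rose, 1 fell and 18 were not called, with a median of 0.52 and 0.38 with the slide block (1 higher). The count of rises was 11 without 0 h replicate 1, 12 without 0 h replicate 2. Heatr1, needed for ribosomal RNA transcription, stood at 2.32, 2.48 and 2.47 at 0 h and 4.62, 3.63 and 4.45 at 12 h and rose 3.51-fold (adjusted p = 0.00239). Rrp12 rose 2.97-fold, Nop16 2.33-fold and Gnl3l 2.30-fold. Ubtf, the RNA polymerase I factor, was the 1 that fell (log2 -1.54 ± 0.23, both probes). The nucleolar proteins Fbl (0.26 ± 0.15), Ncl (-0.27 ± 0.18) and Npm1 (0.46 ± 0.19) were not called. Of 37 cytosolic ribosomal proteins 3 rose, 7 fell and 27 were not called, and their median of 0.14 had the other sign with normexp, quantile normalization and the authors' values. Rplp0 (0.32 ± 0.21), Rps6 (-0.23 ± 0.14) and Rpl3 (0.26 ± 0.17) were not called. Rps3 (0.97 ± 0.16), Rpl7 (0.71 ± 0.23) and Rps9 (0.53 ± 0.15) rose, and Rpl12 (-2.48 ± 0.26), Rps23 (-1.72 ± 0.18), Rpl22 (-1.54 ± 0.20) and Rps2 (-1.53 ± 0.20) fell. These genes have many near-identical copies in the genome, so a probe's signal may be shared.

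Most proteasome and respiratory chain subunits were not called. For the proteasome, which degrades tagged proteins, 26 of 31 were not called, 2 rose and 3 fell (0 without 0 h replicate 1, 0 h replicate 2, 0 h replicate 3, 12 h replicate 1 or 12 h replicate 2, 6 without 12 h replicate 3), and the median of -0.05 had the other sign under 4 of the alternatives. Psma1 (0.02 ± 0.47), Psmb5 (-0.17 ± 0.19) and Psmd14 (-0.21 ± 0.15) were not called. Psmb2 (0.65 ± 0.18) and Psme3 (0.73 ± 0.26, overlapping groups) rose, and Psmd1 (-0.64 ± 0.18), Psmc3 (-0.54 ± 0.16) and Psmd3 (-0.50 ± 0.17) fell. In the respiratory chain none of 46 rose, 5 fell and 41 were not called, with a median of -0.19 (-0.23 with the slide block), and the count of falls was 2 without 0 h replicate 3, 3 without 0 h replicate 1, 0 h replicate 2 or 12 h replicate 1, 10 without 12 h replicate 3. Atp5j (-1.12 ± 0.18) fell most, then Ndufa8 (-0.77 ± 0.16), Ndufb10 (-0.70 ± 0.18), Ndufs1 (-0.52 ± 0.18) and Atp5a1 (-0.51 ± 0.15), and Sdha (0.15 ± 0.26) was not called. The falls of Psmd3 and Atp5j had the other sign with the slide block.

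Among chaperones of the endoplasmic reticulum, where secreted proteins fold, more rose than fell. Of 28 members 12 rose, 3 fell and 13 were not called (median 0.49, 0.47 with the slide block, where 3 rose). Hspa5, the central chaperone BiP, stood at 5.08, 4.87 and 5.58 at 0 h and 7.08, 7.76 and 7.44 at 12 h. The groups lay about 1.5 log2 units apart, a rise of 4.75-fold (adjusted p = 0.000907). Creld2 rose 8.03-fold, Sdf2l1 6.22-fold, the co-chaperone Dnajb9 5.05-fold and Syvn1, a ligase of protein disposal, 4.96-fold. Xbp1, the transcription factor of this stress, rose 2.62-fold and Hsp90b1 1.92-fold. Pdia6 (-1.22 ± 0.23, the other sign with the slide block), Derl2 (-0.91 ± 0.18) and Canx (-0.58 ± 0.16) fell.

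In the ATF4 and amino acid stress list 9 of 22 rose, 1 fell and 12 were not called (median 0.51, 0.26 with the slide block, where none was called). Atf4 itself (0.51 ± 0.23) and Trib3 (-0.65 ± 0.63) were not called. Ddit3, the factor CHOP, stood at -0.17, -0.15 and 0.55 at 0 h and 1.55, 2.04 and 1.18 at 12 h without overlap and rose 2.86-fold. Chac1 rose 5.71-fold (log2 3.17 without 12 h replicate 2, and not called without 0 h replicate 3, 2.05, or 12 h replicate 1, 2.36), Sesn2 at least 2.17-fold, Ddit4, an inhibitor of mTORC1, 4.40-fold and Nupr1 3.81-fold, while Shmt2 fell (-0.97 ± 0.21). Of 22 heat shock proteins 2 rose, 6 fell (3 without 0 h replicate 3) and 14 were not called, with a median of -0.20 (-0.07 with the slide block, and 0.07 without 0 h replicate 3). Hspa8 (0.48 ± 0.24), Hspa1b (-0.58 ± 0.49) and Hsp90aa1 (0.40 ± 0.26) were not called. Bag3 (1.23 ± 0.36) and Cryab (1.05 ± 0.25) rose, and Hspa4 (-1.98 ± 0.29), Serpinh1 (-1.55 ± 0.16), Hsph1 (-0.94 ± 0.33) and Hsf1 (-0.76 ± 0.25) fell.

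Genes of the circadian clock differed between the groups in both directions. As background, BMAL1 (Arntl) with CLOCK or NPAS2 drives the Per, Cry and Nr1d genes and the output factors Dbp, Tef and Hlf, whose RNAs peak at other hours of the day than that of Arntl. Arntl stood at -0.92, -1.16 and -1.82 at 0 h and 1.74, 1.65 and 1.29 at 12 h and rose 7.27-fold with no overlap (adjusted p = 0.000445). Its partners Npas2 (2.65-fold) and Clock (2.10-fold) rose, as did the repressor Cry1 (2.35-fold) and Per1 (log2 0.45 ± 0.16). Per3 stood at 2.01, 2.11 and 1.93 at 0 h and -0.98, -0.94 and -1.86 at 12 h, a fall of 9.69-fold (adjusted p = 0.000295). Nr1d2 fell 5.86-fold, Per2 2.75-fold and Bhlhe40 2.84-fold, while Nr1d1 stood at 1.10, 0.21 and 0.80 at 0 h and 0.27, -0.85 and -0.14 at 12 h, with overlap and no call (-0.94 ± 0.34). Over the core clock list 5 of 18 rose, 7 fell and 6 were not called, and the slide block kept the calls of Per3 and Nr1d2, with a median of -0.45 against -0.31.

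The output genes moved further. Of 20 members 11 fell, 10 of them at least 2-fold, 4 rose and 5 were not called, with a median of -1.13 (-1.03 with the slide block, where 6 fell and none rose). Dbp stood at 0.29, 0.26 and 0.45 at 0 h and -4.42, -3.89 and -3.55 at 12 h, a fall of 19.4-fold with the groups more than 3 log2 units apart (adjusted p = 0.000102). Tef fell 7.60-fold and Hlf 4.44-fold, and their antagonist Nfil3 rose 3.83-fold, from 0.03, 0.37 and -0.10 at 0 h to 2.24, 1.52 and 2.35 at 12 h. The deubiquitinase Usp2 (22.2-fold), the G protein regulator Rgs16 (22.1-fold), the glucose transporter Slc2a2 (18.2-fold) and uridine phosphorylase Upp2 (13.6-fold, log2 -3.01 without 12 h replicate 2) fell. Clpx (2.73-fold), the lipase Pnpla2 (2.62-fold) and Tspan4 (2.56-fold) rose. Wee1, a clock-driven kinase that delays mitosis and was picked after its values were seen, fell 13.5-fold.

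**Figure D4:**
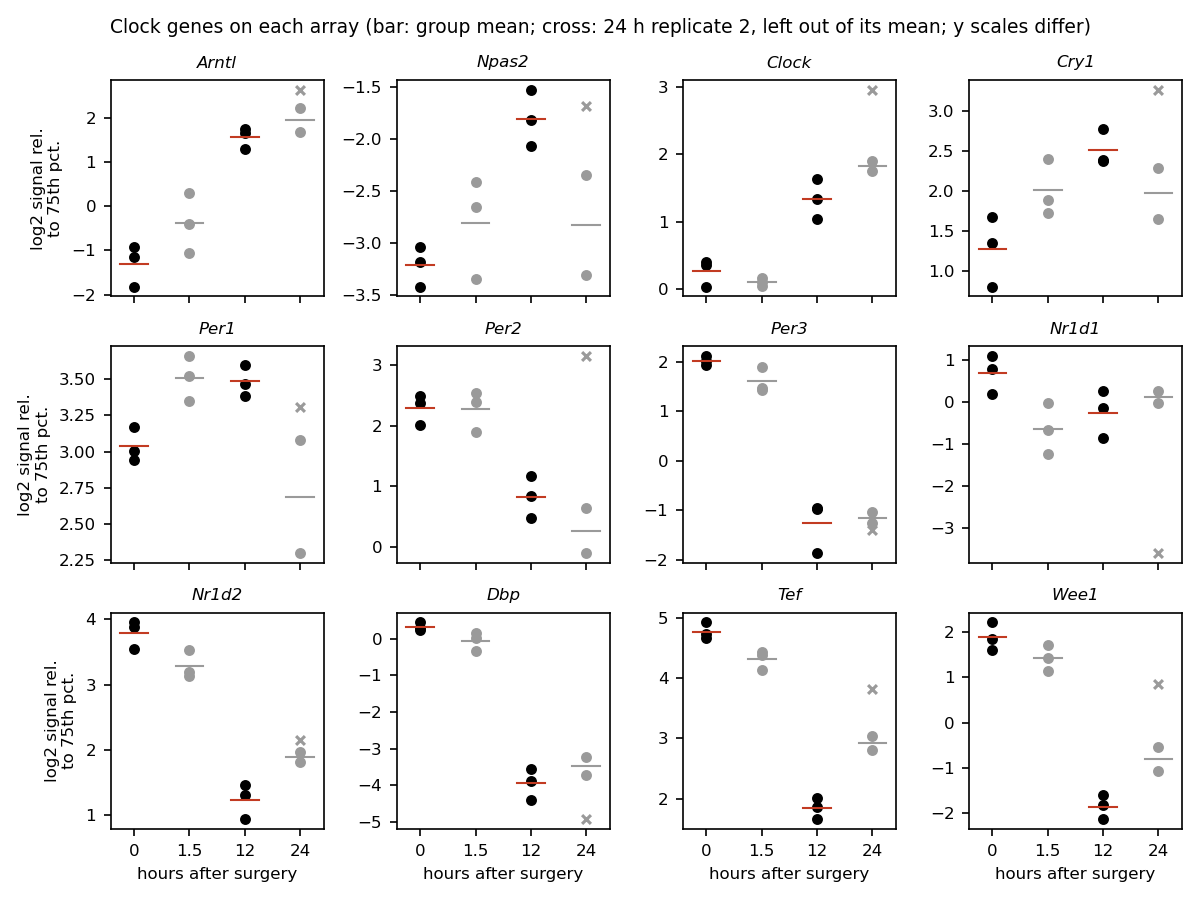
Level on each array (log2 signal relative to the array's 75th percentile, scales differ) of 12 clock genes against hours after surgery, with a bar at each group mean (red at 0 h and 12 h), 0 h and 12 h in black, the other time points in grey and a cross for 24 h replicate 2, left out of its mean. Dbp, Per3 and Nr1d2 are lower on every 12 h array than on every 0 h array, and Arntl is higher.

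The other time points share the 0 h arrays, so their levels are only set beside these. At 1.5 h Dbp stood at 0.03, 0.15 and -0.33 and Arntl at -1.05, -0.40 and 0.29. At 24 h Dbp stood at -3.73, -4.93 and -3.22 and Arntl at 2.23, 2.63 and 1.67, where replicate 2 is an array that stands apart from the others. On all 3 arrays of 24 h Dbp lay below, and Arntl above, every 0 h value. The part of the hour of collection, which is not given in the sources used here, was not tested.

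BMAL1 and its partners bind the E-box CACGTG, and DBP, TEF, HLF and NFIL3 bind the D-box TTANGTAA. The E-box was found in the windows of 3 of 13 core clock genes (23.1%, against 8.09% of all genes), namely Per1, Cry1 and Ciart, of which Per1 and Cry1 rose and Ciart, named after its values were seen, fell (-1.12 ± 0.20). The D-box was found in 2 of 13 (15.4%, against 2.72%), Per3 with 2 copies and Timeless. Among the 17 clock output genes with a window, 2 held the E-box (11.8%), Tef, which fell, and Tspan4, which rose. None of those 17 held the D-box. The E-boxes of Per1, Cry1 and Ciart are shown because these genes moved in different directions, and the D-boxes of Per3 are shown beside them (chr11:69098759-69098812, + strand; chr10:85185085-85185138, - strand; chr3:95882315-95882368, - strand; chr4:151044839-151044894 and chr4:151044792-151044847, - strand).
Per1: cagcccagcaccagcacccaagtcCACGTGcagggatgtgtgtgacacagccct
Cry1: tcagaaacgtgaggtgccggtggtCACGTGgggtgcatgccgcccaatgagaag
Ciart: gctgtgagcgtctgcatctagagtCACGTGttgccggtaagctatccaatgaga
Per3 first: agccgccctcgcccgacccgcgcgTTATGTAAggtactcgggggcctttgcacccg
Per3 second: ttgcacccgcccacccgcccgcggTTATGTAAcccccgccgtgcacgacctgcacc
The capitals mark the E-box in the first 3 and the D-box in the Per3 windows, and CACGTG reads the same on both strands. Ciart holds 2 further E-boxes in its window that are not shown.

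Bile acid genes fell as a list. Of 30 members 20 fell, 3 rose and 7 were not called (median -0.83, -0.84 with the slide block, where 6 fell). After Cyp7a1, described above, Cyp8b1, which sets the share of cholic acid, fell 4.29-fold, from 6.13, 6.49 and 6.01 at 0 h to 3.65, 4.86 and 3.81 at 12 h. Uptake and export fell too. Slc10a1, the sodium-driven uptake carrier NTCP, stood at -0.69, -0.62 and -2.13 at 0 h and -5.10, -4.07 and -5.61 at 12 h, a fall of 13.7-fold (adjusted p = 0.00172), and Abcb11, the bile salt export pump, fell 7.85-fold. The sterol exporter Abcg8 fell 6.88-fold, and Nr0b2, the repressor SHP that bile acids induce through FXR, 5.93-fold. The 3 that rose were Baat (1.78-fold), which conjugates bile acids, Amacr (1.88-fold) and the export carrier Slc51a (1.61-fold).

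Cholesterol synthesis and uptake fell further. Of 29 members 21 fell, 19 at least 2-fold, 2 rose and 6 were not called, with a median of -1.86. With slide as a block the median was -1.18, with 6 falls and 1 rise, and with normexp 14 fell. Srebf2, the main factor that drives the pathway, changed by -0.08 ± 0.32 and was not called. Sc5d stood at 5.78, 5.82 and 5.89 at 0 h and 2.12, 2.00 and 2.40 at 12 h, with no overlap between the groups (adjusted p = 7.19e-05). Sc5d (12.6-fold), Dhcr7 (5.70-fold), Acat2 (5.61-fold) and Nsdhl (5.40-fold), enzymes of the pathway, fell. Insig2, which keeps SREBP proteins in the endoplasmic reticulum, stood at 3.14, 2.30 and 2.79 at 0 h and 4.83, 5.86 and 5.60 at 12 h and rose 6.44-fold. The other that rose was Abca1 (2.77-fold), which exports cholesterol.

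Fatty acid synthesis was the lowest list of all 43. Of 24 members 21 fell, 17 at least 2-fold, 1 rose and 2 were not called (median -2.34, -1.49 with the slide block, where 8 fell and none rose, and -1.71 with normexp). Srebf1, the main driver of the pathway, stood at 2.91, 3.68 and 3.36 at 0 h and -0.70, -0.81 and -0.37 at 12 h, a fall of 15.4-fold (adjusted p = 0.000117). Acly, which makes cytosolic acetyl-CoA, fell 14.2-fold, Aacs 12.3-fold and the phosphatase Lpin1 11.3-fold. Fasn, the fatty acid synthase, stood at 2.04, 2.41 and 2.25 at 0 h and 1.10, 0.60 and 0.81 at 12 h, all 12 h arrays lower, and fell 2.63-fold (adjusted p = 0.00191). Scd1, the desaturase, stood at 8.81, 8.70 and 8.68 at 0 h and 8.80, 8.47 and 8.27 at 12 h, overlapping at a very high level, and was not called. Mlxipl, the glucose-responsive factor ChREBP, and Acaca, picked after their values were seen, fell 6.85-fold and 5.67-fold. Elovl1, the 1 member that rose (0.69 ± 0.20), had the other sign with the slide block.

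SREBP proteins bind elements of the form TCACNCCAC. The motif was found in 1 of the 20 cholesterol genes with a window, Hmgcs1, and in 1 of the 21 fatty acid synthesis genes, Mlxipl, against 1.44% of all genes. Hmgcs1, the cytosolic synthase early in the pathway, named here for its element, stood at 6.91, 6.83 and 6.54 at 0 h and 4.00, 4.85 and 4.19 at 12 h and fell 5.34-fold, and its window is shown with the element in capitals (chr13:119690190-119690246, + strand).
Hmgcs1: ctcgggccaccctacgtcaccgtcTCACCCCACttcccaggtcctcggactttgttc
The other genes have no match to these letters in the window.

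Most genes of fatty acid oxidation were not called. Of 29 oxidation and PPAR alpha genes 7 rose, 6 fell and 16 were not called, and the median of 0.15 was 0.30 with the slide block and -0.06 with normexp. Pdk4, which blocks the use of glucose carbon, stood at -0.15, 0.15 and -0.16 at 0 h and 3.98, 4.11 and 4.56 at 12 h and rose 19.3-fold (adjusted p = 7.66e-05). The carnitine carrier Slc25a20 rose 1.94-fold and Hadha, of the mitochondrial trifunctional enzyme, 1.81-fold. Cpt1a (0.23 ± 0.16), the gate of mitochondrial oxidation, was not called. Ppara itself stood at 3.60, 3.73 and 3.96 at 0 h and 1.47, 2.43 and 2.31 at 12 h, lower on every 12 h array (3.22-fold, adjusted p = 0.00331). The coactivator Ppargc1a fell 4.62-fold, the ketone body enzyme Bdh1 5.12-fold, and Acadm by 0.73 on the log2 scale, the other sign from its value with the slide block.

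Of 29 genes of lipid droplets and fatty acid uptake 14 rose, 12 of them at least 2-fold, 2 fell and 13 were not called (median 0.60, 0.39 with the slide block, where 6 rose and none fell). Cidec, which fuses lipid droplets, stood at -2.60, -1.97 and -1.75 at 0 h and 3.71, 3.96 and 4.26 at 12 h, a rise of 67.7-fold (adjusted p = 7.09e-05). Plin2, the main droplet coat of hepatocytes, stood at -0.11, -0.07 and -0.24 at 0 h and 2.57, 2.76 and 3.08 at 12 h and rose 7.69-fold, and the lipase inhibitor Hilpda rose 12.9-fold. Both showed tight groups without overlap. The fatty acid importer Cd36 rose 2.76-fold with all 5 of its probes called, the binding protein Fabp4 7.76-fold, Plin4 2.69-fold and Plin1 at least 2.81-fold. Fitm1 (-1.32 ± 0.30) and Pparg (-0.86 ± 0.18) fell. Several of these are also adipocyte genes. Of 8 measured adipose markers 5 rose, 1 fell and 2 were not called (median 1.25, 0.68 with the slide block). Adipoq, the defining one, was dim at -3.58, -3.60 and -3.49 at 0 h and -2.46, -2.54 and -3.48 at 12 h and was not called, and Lep rose at least 2.28-fold. Slc7a10 (1.34 ± 0.19) and Cidea (0.92 ± 0.24, but 0.42 and not called with quantile normalization) rose and Car3 (-1.89 ± 0.29) fell. The summed signal of the list, which Car3 leads, went from between 6.92 and 7.22 at 0 h to between 4.67 and 5.62 at 12 h. The part of fat tissue in these rises was not tested.

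Genes of glucose handling moved in both directions. Of 30 members 12 fell, 8 rose and 10 were not called (median -0.33, -0.13 with the slide block), and the count of rises was 3 without 0 h replicate 3, 4 without 0 h replicate 1, 0 h replicate 2 or 12 h replicate 1. G6pc, the last step of glucose release, stood at 6.36, 5.40 and 6.86 at 0 h and 1.36, 4.35 and 3.43 at 12 h. Its groups did not overlap but its 12 h arrays spread over almost 3 log2 units, and it fell 8.92-fold (adjusted p = 0.0122), with a log2 change of -2.32 without 12 h replicate 1 and -3.81 without 12 h replicate 2. Pck1, which starts gluconeogenesis, changed by -0.73 ± 0.34 and was not called. The glycogen phosphorylase Pygl fell 6.20-fold and Pfkfb1 3.83-fold. Ldha rose 2.47-fold, the hexokinases Hk1 2.52-fold and Hk2 2.27-fold, and Irs2, an insulin receptor substrate, 3.09-fold with overlapping groups.

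The urea cycle and amino acid catabolism list was balanced, 9 of 34 higher, 9 lower and 16 not called, and its median of -0.09 (-0.14 with the slide block) turned positive with both other 75th percentile scalings and without 0 h replicate 3. The count of rises was 5 without 0 h replicate 1 or 12 h replicate 1. Cps1 (-0.09 ± 0.25) and Ass1 (0.03 ± 0.25), the first enzymes of the cycle, overlapped between the groups, and Arg1, the last, rose 1.88-fold. Sdsl, a serine dehydratase, stood at 2.36, 2.42 and 2.28 at 0 h and 5.12, 5.28 and 5.26 at 12 h and rose 7.28-fold (adjusted p = 8.56e-05). Mat1a (2.78-fold), Kmo (2.63-fold) and Nags (2.36-fold) rose. Prodh (3.01-fold), Hgd (2.45-fold), Hal (2.35-fold) and the carrier Slc25a13 (2.08-fold) fell.

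Drug metabolism fell in most of its members. Of 30 cytochrome P450 genes of families 1 to 3, 18 fell, 3 rose and 9 were not called (median -0.81, -0.91 with the slide block, where 4 fell). Cyp2b10, the classical target of the receptor CAR, stood at -1.21, 0.30 and 0.05 at 0 h and 4.62, 3.05 and 4.37 at 12 h and rose 19.7-fold (adjusted p = 0.00108). Cyp2b9 rose 10.8-fold and Cyp3a13 3.27-fold, and in both Cyp2b genes 12 h replicate 2 was the lowest of its group. Cyp2e1 (-0.11 ± 0.17) and Cyp3a11 (-0.15 ± 0.21), among the most abundant, were not called, and Cyp1a2 fell by 0.81 on the log2 scale. Cyp2r1 (4.86-fold), Cyp2c38 (4.80-fold), Cyp3a25 (3.43-fold) and Cyp3a41a (3.34-fold) fell. Members of these families resemble one another, so probes may share signal.

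Of 34 phase II transferases, which attach sugars, sulfate or glutathione, 19 fell, 5 rose and 10 were not called (median -0.61, -0.42 with the slide block), and the count of falls was 11 without 0 h replicate 3, 12 without 0 h replicate 1. Ugt1a1, which conjugates bilirubin, fell 6.45-fold to near background, from -2.72, -3.40 and -3.64 at 0 h to -6.11, -5.36 and -6.35 at 12 h. With normexp that change was -0.03. Nnmt, the nicotinamide methyltransferase, stood at 4.63, 5.03 and 5.38 at 0 h and 8.90, 8.70 and 8.96 at 12 h and rose 14.4-fold (adjusted p = 0.000104). Sult1d1 (2.67-fold), Sult1a1 (2.19-fold) and Ugt3a1 (2.14-fold) rose. Sult1c2 (13.7-fold), Ugt2b35 (7.50-fold), Gsta3 (3.52-fold) and Gstm3 (4.89-fold, the other sign with the slide block) fell, and Gsta1 (-1.01 ± 0.45) was not called.

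The transcription factors of hepatocyte identity moved in both directions. Of 30, 9 fell, 7 rose and 14 were not called (median -0.37, -0.52 with the slide block, where none was called), and the count of rises was 1 without 0 h replicate 1, 3 without 0 h replicate 2, 4 without 0 h replicate 3, 12 h replicate 1 or 12 h replicate 2. Hnf4a, the master regulator, stood at 6.58, 6.45 and 6.56 at 0 h and 6.45, 6.10 and 6.57 at 12 h, overlapping and not called (-0.16 ± 0.18). Cebpa, which restrains proliferation, stood at 4.37, 4.38 and 4.36 at 0 h and 3.68, 3.00 and 2.97 at 12 h, all 12 h arrays lower (log2 -1.15 ± 0.22, adjusted p = 0.00608). The drug-sensing receptors PXR (Nr1i2, 2.69-fold) and CAR (Nr1i3, 2.60-fold) and Stat5b (2.24-fold), which carries the growth hormone signal, fell. Creb3l3 (2.51-fold), Foxa3 (1.85-fold) and Cux2 (1.69-fold), a female-biased factor, rose. With quantile normalization the log2 change of Cux2 was 0.33 and was not called.

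Among growth hormone and sex-biased genes 6 of 30 rose, 7 fell and 17 were not called (median -0.17, -0.45 with the slide block and 0.05, the other sign, with normexp). Igf1 (0.13 ± 0.21), the main growth hormone target, and Cyp4a12a (-0.44 ± 0.21), a male-biased P450, were not called. Beside Hsd3b5 the male-biased Selenbp2 stood at 7.21, 7.49 and 7.03 at 0 h and 5.11, 4.81 and 5.38 at 12 h and fell 4.41-fold (adjusted p = 0.000549), and Ces3b (3.95-fold) and Nudt7 (1.94-fold) fell. The female-biased P450 Cyp3a41a fell too (3.34-fold). Cyp17a1, which stood at -1.74, -1.29 and -1.03 at 0 h and 0.86, 2.07 and 1.35 at 12 h, rose 6.88-fold without overlap, and Moxd1 2.51-fold.

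Most plasma carriers and apolipoproteins were not called. Of 32, 6 rose, 6 fell and 20 were not called, and the median of 0.24 turned negative with normexp, quantile normalization, the authors' values and the slide block. The count of rises was 3 without 0 h replicate 1, 0 h replicate 2, 0 h replicate 3 or 12 h replicate 1, 15 without 12 h replicate 3. Alb stood at 8.12, 8.38 and 8.18 at 0 h and 9.37, 9.05 and 7.69 at 12 h, the 12 h replicate 3 array below all of 0 h, and was not called. Apoa1 (0.23 ± 0.20) was not called either. Ttr, which carries thyroxine and retinol, fell 3.80-fold (adjusted p = 0.000655), as did Serpina6 (2.42-fold), the cortisol carrier, Mttp (2.07-fold), which loads lipoproteins, and Lipc (1.71-fold). Apoa4 stood at 5.98, 6.23 and 6.39 at 0 h and 8.38, 8.42 and 8.35 at 12 h and rose 4.54-fold (adjusted p = 0.000256). Apon (2.24-fold) and Lcat (1.63-fold) rose. The brightest Apoe probe rose by 0.73 ± 0.24, while its other probe fell and the slide block gave the other sign.

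Of 44 coagulation and complement genes 15 fell, 4 rose and 25 were not called (median -0.28, -0.28 with the slide block, where 1 fell and 2 rose). F2, prothrombin, changed by -0.27 ± 0.16 and the complement protein C3 by 0.58 ± 0.26, neither called, and Serpinc1, antithrombin, fell 1.83-fold. Klkb1, prekallikrein, stood at 5.75, 5.56 and 5.70 at 0 h and 3.10, 1.86 and 2.63 at 12 h and fell 8.81-fold (adjusted p = 0.000526), Serpind1 fell 6.17-fold, Hc 2.93-fold and F11 2.28-fold. Mbl1 (1.89-fold), a lectin that starts complement, and Pros1 (1.53-fold), protein S, rose.

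In iron handling 8 of 19 rose (5 without 0 h replicate 2 or 0 h replicate 3), 4 fell and 7 were not called (median 0.38, 0.07 with the slide block). Hamp, the hormone hepcidin that lowers plasma iron, stood at 7.35, 7.57 and 7.42 at 0 h and 9.59, 9.10 and 9.03 at 12 h and rose 3.46-fold (adjusted p = 0.000819), against a log2 change of 0.79 with the slide block, which was not called. Slc40a1, the iron exporter that hepcidin removes, stood at 4.34, 4.18 and 4.03 at 0 h and 1.40, 1.94 and 1.87 at 12 h and fell 5.44-fold (adjusted p = 0.000306). The importer Slc39a14 rose 5.08-fold with all 3 of its probes called, haem oxygenase Hmox1 2.90-fold and Hfe 2.21-fold. Tfrc (0.68 ± 0.43) was not called, and the hepcidin regulators Hjv (-0.98 ± 0.26) and Tmprss6 (-0.84 ± 0.18) fell, as did Aco1 (-0.92 ± 0.22), whose sign turned with normexp. Of the 2 probes of Slc11a2 the brighter rose (1.52 ± 0.19) and the other fell.

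Markers of cells other than hepatocytes moved apart. Of 15 neutrophil markers 12 rose and none fell (median 1.49, 1.40 with the slide block), and their summed signal went from between 2.38 and 2.64 at 0 h to between 5.33 and 5.66 at 12 h. S100a8 stood at -2.32, -1.50 and -1.78 at 0 h and 3.27, 2.76 and 3.18 at 12 h and rose 30.6-fold (adjusted p = 8.21e-05), S100a9 29.5-fold and Retnlg 17.2-fold. Ngp rose at least 20.2-fold and Mmp8 at least 3.63-fold, both not well above background on any 0 h array. Fpr2 (5.09-fold) and Chil3 (4.23-fold) also rose. These rose beside the chemokines Cxcl1, Cxcl2 and Cxcl5, and the part of incoming cells in the rises of inflammatory genes was not tested.

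Of 19 macrophage markers 9 fell, 2 rose and 8 were not called, with a median of -0.62 that was -0.05 with the slide block, where none fell. Their summed signal lay between 6.03 and 6.80 at 0 h and between 5.73 and 6.27 at 12 h, overlapping. Clec4f, of resident Kupffer cells, stood at -0.08, 0.28 and -0.33 at 0 h and 0.16, 0.26 and -0.01 at 12 h, overlapping and not called. Csf1r (2.41-fold), Adgre1 (2.34-fold), Aif1 (4.64-fold), Lyz2 (2.26-fold), Cd5l (2.19-fold) and Mpeg1 (2.19-fold, the other sign with the slide block) fell. Marco, a scavenger receptor, stood at 1.20, 2.67 and 1.21 at 0 h and 4.25, 3.42 and 4.73 at 12 h and rose 5.42-fold (adjusted p = 0.00651), and Cx3cr1 rose by 0.65 ± 0.16.

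Of 24 endothelial markers 5 rose, 5 fell (2 without 0 h replicate 3 or 12 h replicate 1, 3 without 0 h replicate 1) and 14 were not called, and the median of -0.10 turned positive with both other 75th percentile scalings and the authors' values. Lyve1, of sinusoidal and lymphatic endothelium, stood at -1.54, -1.14 and -0.70 at 0 h and 2.45, 1.80 and 2.43 at 12 h and rose 10.2-fold (adjusted p = 0.000317), while Kdr, the VEGF receptor, stood at 2.13, 2.02 and 2.11 at 0 h and -1.14, 0.23 and -0.23 at 12 h and fell 5.54-fold (adjusted p = 0.00163). These receptors of the same cells moved in opposite directions. Stab2 (-0.11 ± 0.16) and Pecam1 (0.13 ± 0.18) were not called. Nos3 (1.38 ± 0.15), Angpt2 (1.29 ± 0.17), an antagonist ligand of Tie2, and Wnt9b (0.97 ± 0.17) rose, and Ehd3 (-1.57 ± 0.24), Oit3 (-0.81 ± 0.21), Clec4g (-0.70 ± 0.23) and Eng (-0.58 ± 0.16) fell.

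In the stellate and matrix list 7 of 26 rose, 8 fell and 11 were not called, the median of -0.14 changed sign under 4 alternatives, and the count of falls was 3 without 0 h replicate 1 or 0 h replicate 3, 5 without 12 h replicate 1. Timp1, an inhibitor of matrix proteases, stood at -3.53, -3.07 and -3.82 at 0 h and 0.55, 0.44 and 0.55 at 12 h and rose 15.8-fold (adjusted p = 9.79e-05). Mmp14 (3.69-fold), Pdgfra (2.43-fold) and Col4a1 (2.31-fold) rose. Reln (-0.29 ± 0.21) was not called. Lrat, which stores retinol in stellate cells, fell 3.73-fold, as did Col5a1 (6.76-fold), Pdgfrb (1.74-fold) and Col3a1 (1.70-fold). Col1a1 (2.41-fold) and Mmp2 (1.57-fold) fell too, with the other sign under the slide block.

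Among 17 bile duct and progenitor markers 5 rose (3 without 0 h replicate 1, 0 h replicate 3 or 12 h replicate 2), 2 fell and 10 were not called, with a median of 0.27 that was negative in the authors' values and -0.06 without 12 h replicate 2. Krt19 (0.04 ± 0.46) and Epcam (0.27 ± 0.21), which define bile duct cells, were not called, whereas Sox9 stood at -2.27, -1.80 and -1.71 at 0 h and -0.32, -0.23 and -0.36 at 12 h and rose 3.08-fold (adjusted p = 0.00104). Tnfrsf12a, the receptor Fn14 of the cytokine TWEAK, rose 8.70-fold, Dlk1 2.09-fold and Krt18 2.07-fold, while Afp (2.31-fold) and Cldn7 (2.11-fold) fell. Of 15 lymphocyte markers Cd3e (1.23 ± 0.38), Nkg7 (1.01 ± 0.21) and Cd28 (at least 16.1-fold) rose, Cd79b (-1.70 ± 0.17) fell, and 11 were not called, and the count of rises was 5 without 12 h replicate 3. Their median was 0.11, negative with quantile normalization and in the authors' values. Among 8 erythroid markers Slc4a1 (1.30 ± 0.21) and Rhag (1.30 ± 0.35, the other sign with the slide block) rose, Hbb-b2 (-1.10 ± 0.15) and Hba-a1 (-0.52 ± 0.17) fell, and Alas2 (-0.49 ± 0.23) was not called, with a median of 0.08 that was negative with the slide block, quantile normalization and the authors' values, and without 0 h replicate 1, 12 h replicate 1 or 12 h replicate 2. Pancreas markers, 9 measured, are a check on neighbouring tissue (median 0.58, 0.58 with the slide block). Their summed signal lay between 2.37 and 2.53 at 0 h and between 1.88 and 2.50 at 12 h, overlapping. Cela1 stood at 1.98, 2.15 and 2.10 at 0 h and 1.36, 0.74 and 1.32 at 12 h and was lower at 12 h. The next 4 lay below the 75th percentile on every array, with Cel (1.23 ± 0.22) and Ctrb1 (0.83 ± 0.21) higher and Prss1 (0.58 ± 0.28) and Cpa1 (0.72 ± 0.36) not called. A further member of the list, also not called, reached 0.82 on 12 h replicate 1 and lay below that percentile on the other arrays compared.

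Interferon response genes fell more often than they rose in the 6-array fit. Of 24 members 12 fell, 1 rose and 11 were not called, with a median of -0.78. With slide as a block the median was 0.04, the other sign, and 1 fell. Ifi44 stood at -0.07, 0.43 and -0.46 at 0 h and -3.76, -4.07 and -3.63 at 12 h, a fall of 13.8-fold (adjusted p = 0.000153) whose log2 change of -1.28 was not called with the block. Irf7 (2.33-fold), the sensor Ddx58 (4.07-fold) and Ifit3 (3.60-fold) fell, and Isg15 (0.01 ± 0.28) was not called. Oasl2 fell at least 5.51-fold here, yet changed by 1.13 with the slide block.

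Noncoding probes were called about as often as coding ones (50.9%), with 3475 higher (38.9%) and 1080 lower (12.1%), so that 76.3% of the called were higher against 54.6% of coding. That share was 59.2% with quantile normalization, 64.0% in the authors' values, 50.3% with the slide block and 31.2% with normexp. Dim probes leaned upwards in both classes, and noncoding probes were dimmer, 47.7% of the dimmest 25% of probes and 16.9% of the brightest 25%. Of the 361 measured ultraconserved elements, genome stretches identical between distant mammals, 192 were higher and 2 lower, with a median of 0.82, which was 0.25 with the slide block (6 higher, 1 lower). Signal level and slide thus moved with this excess, and their part in it was not tested.

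The widest noncoding changes are given by the identifiers of the array design, which the sources used here do not pair with a position. AK008001 stood at -0.09, -0.98 and -0.74 at 0 h and 5.72, 5.80 and 5.89 at 12 h, a rise of 85.0-fold (adjusted p = 6.46e-05) that was also called with normexp (log2 5.81). The UCSC transcripts uc009kuy, uc008mgp and uc007kjl rose at least 43.4-fold, 47.6-fold and 15.4-fold, NR_003640 at least 9.30-fold and AK087276, with 1 of 3 arrays of 0 h well above background, by 5.03 ± 0.31 on the log2 scale (2.20 with normexp). With normexp NR_003640 and uc007kjl lost their calls. AK018558 stood at 2.88, 3.16 and 2.55 at 0 h and -4.85, -4.41 and -4.54 at 12 h, a fall of 177-fold (adjusted p = 3.15e-05; log2 -4.61 with normexp), the deepest fitted fall of all probes, with 2 of 3 arrays of 12 h well above background and the 12 h arrays within 0.5 log2 units of each other. AK019073 stood at 0.98, -0.39 and -0.74 at 0 h and -8.12, -4.28 and -6.22 at 12 h, and its 12 h values differed by almost 4 log2 units. With 1 of the 3 well above background, its fitted log2 change of -6.15 ± 0.92 was -5.20 without 12 h replicate 1, -7.12 without 12 h replicate 2 and -1.92 with normexp. The transcripts uc007uno (at least 9.17-fold), AK006955 (at least 31.9-fold), uc007zty (at least 19.5-fold) and uc009csa (log2 -5.03 ± 0.17, 2 of 3 arrays of 12 h well above background) fell to near background. None of the 5 after AK018558 was called with normexp.

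Of 13 well-known long noncoding RNAs 7 rose, none fell and 6 were not called (median 0.71, 0.59 with the slide block, where 1 rose). The hosts of small nucleolar RNAs led. Snhg3 stood at 1.93, 1.65 and 1.53 at 0 h and 3.38, 3.57 and 3.49 at 12 h and rose 3.42-fold (adjusted p = 0.000522), and Snhg1 stood at -1.06, -1.14 and -0.76 at 0 h and 0.49, 0.41 and 1.11 at 12 h and rose 3.16-fold. Their groups lay more than 1 log2 unit apart. Miat rose by 0.92 ± 0.21. Snhg6 (0.92 ± 0.17) and Snhg7 (0.71 ± 0.19), named after their values were seen, rose less, as did Terc (1.22 ± 0.25), the RNA of telomerase, and Rpph1 (1.11 ± 0.29), that of RNase P. Malat1 stood at 0.07, 0.34 and 0.07 at 0 h and -0.10, 0.31 and -0.29 at 12 h and Neat1 at 0.88, 1.79 and 0.09 at 0 h and 0.56, 1.94 and 0.73 at 12 h, both overlapping between the groups and not called.

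**Figure D5:**
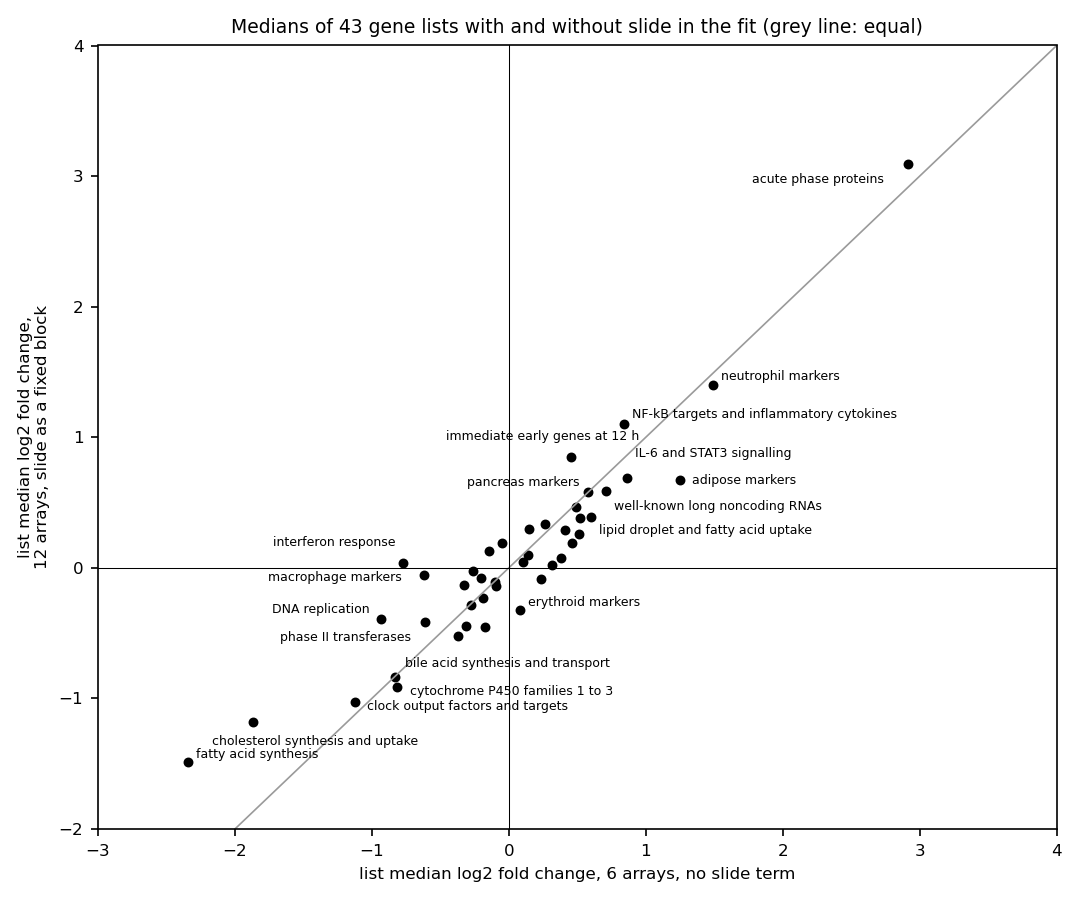
Median change (log2, 12 h minus 0 h) of each of 43 gene lists in the 6-array fit on the horizontal axis against the fit of 12 arrays with slide as a fixed block on the vertical axis, 1 point a list, with the line of equal values in grey. Acute phase proteins stay highest (2.92 and 3.09), fatty acid synthesis stays lowest (-2.34 and -1.49), and the interferon list moves from -0.78 to 0.04.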

How the data were processed

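Total liver RNA of 6 of the 12 mice of the series, 3 at each of 0 h and 12 h, was compared. The deposited scanner tables hold spot intensity, per the file headers from Agilent Feature Extraction 10.5.1.1, with the processed signal already background-corrected by the scanner software. The deposited value table holds log2 values of the authors, whose normalization is not given in the sources used here, and it served as an alternative. Each array's log2 processed signal was scaled to its own 75th percentile, control spots were dropped, spots of 1 probe were averaged, and probes well above background on at least 3 of 6 arrays were fitted with limma 3.58.1 (R 4.3.3) and adjusted by Benjamini-Hochberg. The fit was tested on simulated data. A gene with several probes was read at its brightest, and the number of arrays limits the precision. The 12 h and 0 h groups share replicate numbers, but nothing in the labels says that these pair the mice, so the main fit took the mice as unpaired.

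The 43 gene lists (1182 of 1204 entries on the array) and the named members were chosen with earlier results of these data known. Named were the 10 coding genes and 6 noncoding transcripts at each end among called probes with groups apart, the first 3 members of each list, and up to 4 further called members in each direction. Some members that this rule names are not reported here. Acaca, Apcs, Ciart, Crp, Fga, Hmgcs1, Hp, Hpx, Il1rn, Itih4, Mcm6, Mlxipl, Pola1, Saa3, Snhg6, Snhg7, Steap4 and Wee1 were named outside this rule after their values were seen. The alternatives were normexp (offset 50, on the median spot signal), other scalings, other filters, slide or replicate number as a block, 11 or 12 arrays, robust moderation, and leaving out each array. Promoters came from RefSeq tables, matched by symbol.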

Additional observations from a re-analysis of the deposited data

How the results depend on the processing

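The comparison called 13625 probes, 61.86% of them higher at 12 h, and 574 of 1072 list members. With normexp these came to 812 probes, 28.08% and 132 members, with slide as a fixed block to 1526, 48.95% and 141, and with all 12 arrays in the fit to 4642, 41.68% and 322. The slide block bridges the groups through the 1.5 h arrays, takes nothing from 12 h replicate 3 for this change, and tested 26413 probes. With slide as a random block 9049 probes were called, 58.47% higher. With 1 probe per named gene 7976 of 15256 were called, 55.98% higher, and with a fold of at least 2 added 7298, 58.58% higher. The share higher was 48.94% with quantile normalization, 70.59% with the percentile over coding probes, 71.17% with it over probes detected on all arrays, 50.64% in the authors' values, 67.95% with no filter and 59.57% with all 6 arrays above background. Leaving out 1 array gave 9525 to 14763 probes and 59.1% to 63.96%. With a replicate block, which the check of pairing did not bear out (correlations of -0.08, 0.06 and 0.10 between the deviations of same-numbered mice), 12825 probes were called, 61.68% higher, and 547 members. Of 413 named transcripts 351 were called. Not every one of the 21 alternative fits tested each of them, and 338 kept their direction in every alternative that did. Fewer kept the call as well, 229 across the alternatives that tested them other than normexp and the slide block. Of the called transcripts 239 lost their call with normexp, 205 with the slide block, 102 with all 12 arrays and 28 with quantile normalization. A fold of at least 2 added lost 73, and leaving out 1 array lost 16 (12 h replicate 3) to 51 (0 h replicate 1). The 13 whose direction changed turned in 12 cases with the slide block, namely Acadm (0.53), Apoe (-0.23), Atp5j (0.065), Col1a1 (0.13), Elovl1 (-0.24), Gstm3 (0.16), Mmp2 (0.045), Mpeg1 (0.18), Oasl2 (1.13), Pdia6 (0.31), Psmd3 (0.23) and Rhag (-2.41), and Aco1 turned to 0.043 with normexp. The cause was not tested. Signal over background limits the dimmest probes, since 484 were not well above background on any 0 h array and 38 on any 12 h array.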
